A study of Arabidopsis thaliana with 48 samples.

Results

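The genotype by herbicide interaction asks how the herbicide response of gcn2 mutant seedlings differed from that of wild-type seedlings, gene by gene, in total RNA. It is the change between herbicide and mock in gcn2 minus the same change in wild type, on the log2 scale, so a positive value means a higher response in gcn2. The 12 total RNA arrays out of 48 arrays in the series were used, as the 4 groups gcn2 herbicide, gcn2 mock, wild type herbicide and wild type mock, with 3 arrays in each. All groups were 10-day Arabidopsis thaliana seedlings of the Landsberg erecta line, of which the aerial part was taken. The sources used here do not name the allele of gcn2. The herbicide was chlorsulfuron, written chlorosufuron in the labels, and the mock groups received only the solvent, which was prepared with acetone. The submersion lasted 1 min and began 2 h after light on, and the harvest followed 2 h later. The dose is uncertain by a factor of 1000, since the labels state 0.5 mM but a 10000-fold dilution of their 5 mM stock would be 0.5 µM.

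GCN2 is the protein kinase that senses uncharged tRNA when amino acids run short and phosphorylates the translation initiation factor eIF2α, which slows the start of translation. Chlorsulfuron inhibits acetolactate synthase, the enzyme that commits carbon to valine, leucine and isoleucine, and so depletes these amino acids. An interaction therefore lists the RNAs whose response to the herbicide depended on the genotype. The mock arrays are subtracted, so a difference between the genotypes in mock alone can also give an interaction. GCN2 itself and CSR1, the catalytic subunit of acetolactate synthase, could not be assigned a probe set by name and were not analysed here, so the mutation was not checked from its own RNA.

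Array medians ran from 6.21 to 6.25 and the correlation of replicates ran from 0.991 to 0.996. Array lower quartiles ran from 3.44 to 3.62, and a group mean below the highest of these is called dim here, since the size of a change from or to it is uncertain. Green-tissue genes were bright: RCA, the activase of Rubisco, had group means of 13.3 in gcn2 herbicide, 13.2 in gcn2 mock, 13.3 in wild type herbicide and 13.1 in wild type mock arrays. Of 9 root markers 5 were measured, none passed the interaction, and EXPA7, EXPA18 and AT5G17820 were dim. PYK10, a root-enriched glucosidase, was not low, with group means between 10.5 and 10.7. Of 9 guard cell and epidermis markers 2 were measured and neither passed. The gcn2 mock arrays were not alike in every respect: 1 unnamed probe set read 10.35 and 10.44 in replicates 1 and 2 and 4.64 in replicate 3, and at most 4.25 on the other 9 arrays. The bearing of this on the interaction was not tested; 610, 808 and 920 probe sets passed without replicate 1, 2 or 3 of gcn2 mock, where 1051 passed with all arrays. The material was whole aerial tissue, so a changed share of a cell type and a changed RNA level per cell cannot be told apart.

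The herbicide response differed between the genotypes for 1051 of 22746 probe sets, which is 4.62% (limma with the replicate number as a block, adjusted p under 0.05). A higher response in gcn2 was found for 644 probe sets, 2.83% of those tested, and a lower response for 407, 1.79%. The median difference was 0.91 in the higher set and -0.78 in the lower set, against -0.02 over all probe sets tested. The higher set reached further: 268 of its members differed by more than 1 log2 unit and 35 by more than 2, whereas 56 of the lower set differed by more than 1 and 0 by more than 2. Without the block 347 probe sets passed, of which 299 were among the 644 higher and 48 among the 407 lower probe sets. The counts also moved by over 1.5 times when some single arrays were left out: 589 probe sets passed without replicate 2 of gcn2 herbicide, 610 without replicate 1 of gcn2 mock, 662 or 601 without replicate 1 or 2 of wild type herbicide, and 648 without replicate 1 of wild type mock.

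**Figure D1:**
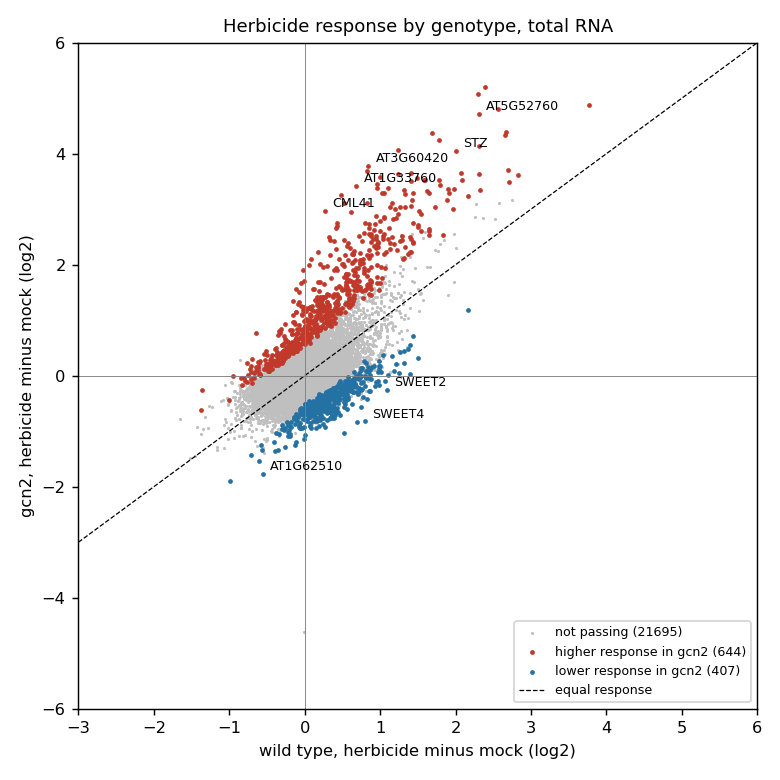
Each point is one of 22746 probe sets, with the change between herbicide and mock in wild type on the horizontal axis and the same change in gcn2 on the vertical axis, both in log2 units; the dashed line marks equal responses. The 644 probe sets with a higher response in gcn2 (red) reach a difference of 2.94 above the line, and the 407 with a lower response (blue) reach -1.62 below it.

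The higher set was mostly made of RNAs that rose with herbicide in gcn2. In 280 of its probe sets the RNA rose in gcn2 and did not pass in wild type, with median responses of 0.90 in gcn2 and 0.04 in wild type. In another 279 the RNA rose in both genotypes and the rise was larger in gcn2, at a median of 2.16 in gcn2 and 0.83 in wild type. In 68 the RNA fell in wild type, at a median of -0.52, and did not pass in gcn2, at 0.17. The responses of either genotype share their arrays with the interaction, so these classes describe its parts. They are read against the background of single responses, since 9.8% of all probe sets rose and 11.9% fell in gcn2, and 8.15% rose and 7.87% fell in wild type.

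The lower set had a different make-up. In 203 of 407 probe sets the RNA fell in gcn2 and did not pass in wild type, with medians of -0.63 in gcn2 and 0.16 in wild type. In 139 it rose in wild type, at a median of 0.63, and did not pass in gcn2, at -0.18. In 31 it fell in gcn2 and rose in wild type, and in 8 it rose in both, less in gcn2. The genotypes differed mainly under herbicide in both sets: gcn2 minus wild type had a median of 0.84 under herbicide and -0.08 in mock for the higher set, and of -0.55 under herbicide and 0.25 in mock for the lower set. In mock alone 18 of the 644 and 22 of the 407 passed the comparison of gcn2 with wild type. Of all probe sets 163, 0.717%, passed it. The mock difference was larger in size than the herbicide difference for 50 of the 644 and 80 of the 407. The mock arrays enter the interaction with the opposite sign, so these mock values are parts of the choice of the sets.

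The largest difference among named genes was that of AT3G60420, which belongs to the phosphoglycerate mutase family. Its log2 values were 9.62, 9.77 and 9.94 in gcn2 herbicide, 6.05, 5.98 and 5.96 in gcn2 mock, 7.39, 7.41 and 7.57 in wild type herbicide and 6.81, 6.58 and 6.44 in wild type mock. No 2 of the 4 groups overlapped, and gcn2 was the highest group under herbicide and the lowest in mock. The response was 3.78 in gcn2 and 0.85 in wild type, and their difference was 2.94 ± 0.17 (SE, n = 3 per group, adjusted p = 3.7e-07).

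AT1G33760 encodes a transcription factor of the ERF family, whose members bind promoters of stress and ethylene response genes. It read 7.25, 7.29 and 6.80 in gcn2 herbicide, 3.71, 3.73 and 3.65 in gcn2 mock, 4.25, 4.79 and 4.31 in wild type herbicide and 3.95, 3.78 and 3.57 in wild type mock. The gcn2 herbicide arrays stood apart from the other 9, and the mock arrays of the genotypes overlapped. The difference of the responses was 2.73 ± 0.19 (adjusted p = 9.0e-07). Mock means of AT1G33760, 3.70 in gcn2 and 3.77 in wild type, lay just above the dim range.

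CML41 encodes a calmodulin-like protein, a small calcium sensor. Its values were 8.09, 8.00 and 8.37 in gcn2 herbicide, 5.07, 5.13 and 5.34 in gcn2 mock, 5.87, 5.51 and 5.62 in wild type herbicide and 5.32, 5.40 and 5.47 in wild type mock. All gcn2 herbicide arrays lay above all others. The response was 2.97 in gcn2 and 0.27 in wild type, where it did not pass (adjusted p = 0.15), and the difference was 2.70 ± 0.17 (adjusted p = 5.5e-07).

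AT1G43910, which encodes an AAA-type ATPase, responded in both genotypes. It read 8.40, 8.34 and 8.40 in gcn2 herbicide, 4.18, 4.13 and 3.71 in gcn2 mock, 5.90, 6.18 and 6.13 in wild type herbicide and 4.33, 4.46 and 4.35 in wild type mock. The herbicide arrays of both genotypes lay above both mock groups, with no overlap between genotypes. Its RNA rose by 4.37 in gcn2 and by 1.69 in wild type, a difference of 2.68 ± 0.18 (adjusted p = 7.5e-07).

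The remaining 8 of the 12 largest positive differences among named genes lay between 2.08 and 2.86. AT5G39670, with calcium-binding EF hands, differed by 2.59 ± 0.24 (adjusted p = 1.2e-05), and AT5G52760, with a heavy-metal-associated domain, by 2.41 ± 0.30 (adjusted p = 0.00022). The TIR-domain genes AT2G32140 and AT2G20142, a domain class of plant immune receptors, differed by 2.29 and 2.26. AT3G54150, a predicted methyltransferase, differed by 2.86. AT2G32140, AT2G20142 and AT3G54150 were dim in the mock groups of both genotypes, so the sizes of their differences are uncertain. AT2G32140 and AT2G20142 were dim in wild type herbicide as well. AT4G24110, AT3G09405, which encodes a pectin acetylesterase, and AT1G56060, which encodes a small cysteine-rich transmembrane protein, differed by 2.33, 2.25 and 2.08. For all 12 genes the call held in the alternatives tried, from which the filter on dim probe sets left out AT2G20142.

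**Figure D2:**
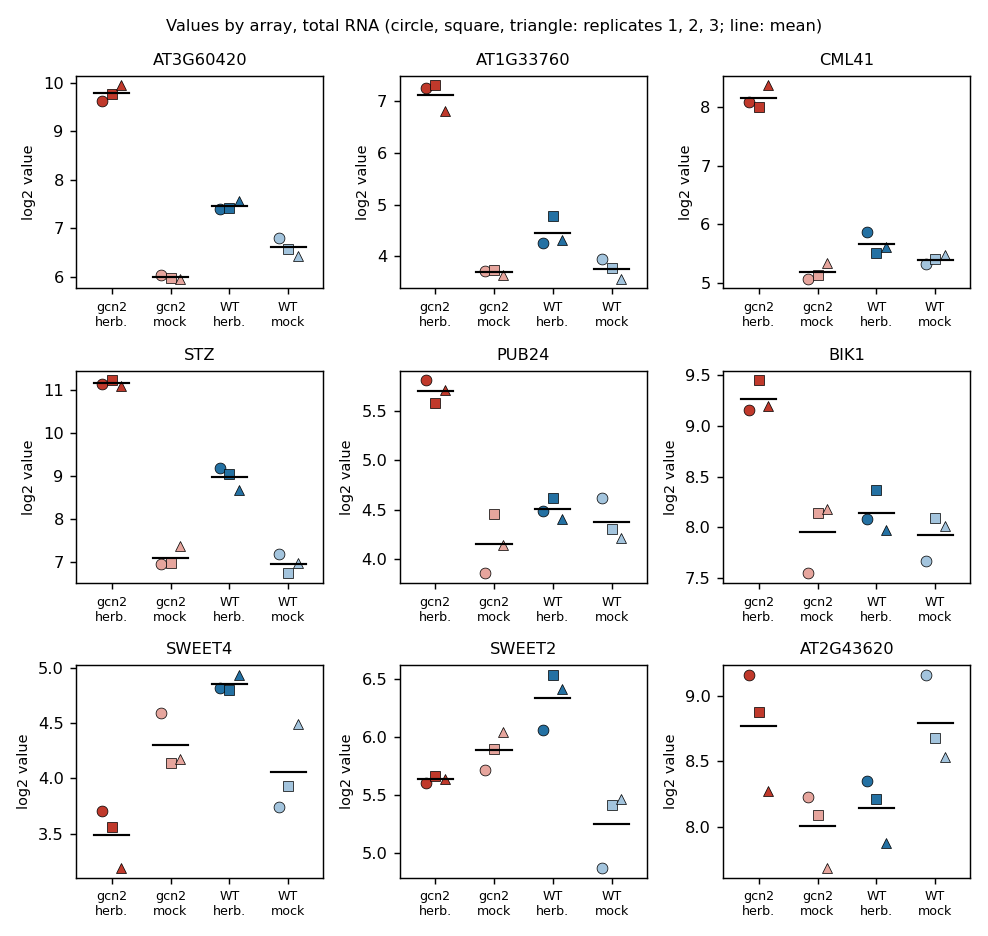
Log2 values of 9 genes on the 12 total RNA arrays, by group; circles, squares and triangles are replicates 1, 2 and 3 and the line is the group mean. For AT3G60420, AT1G33760, CML41, STZ, PUB24 and BIK1 the gcn2 herbicide arrays lie above all others; for SWEET4 they lie below all others; for SWEET2 the wild type herbicide arrays lie above all others; AT2G43620 moved in opposite directions in the genotypes.

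Among genes of calcium signalling, 6 of 25 measured (of 52 listed) had a higher response in gcn2 and 0 a lower one, with a median of 0.23 over the 25. Counts of this and the following lists are set against the 2.83% of all probe sets that were higher and the 1.79% that were lower. Besides CML41 these were AT2G41410 at 1.65 ± 0.22, CML37 at 1.28 ± 0.21, AT3G01830 at 0.98, AT3G47480 at 0.87 and CML38 at 0.79. AT2G41410, another calmodulin-like gene, read 10.95, 11.32 and 11.75 in gcn2 herbicide, 7.63, 7.74 and 8.31 in gcn2 mock, 9.30, 9.84 and 9.53 in wild type herbicide and 7.43, 8.05 and 7.84 in wild type mock. Its herbicide arrays did not overlap between genotypes, while its mock arrays did. CML38 rose in both genotypes, by 3.62 in gcn2 and by 2.83 in wild type. CML42, a further calmodulin-like gene, had a difference of -0.13 that did not pass (adjusted p = 0.84). The list was thus divided, with 19 of 25 members not passing. Without the block CML38 and AT3G01830 did not pass either (adjusted p = 0.094 and 0.16).

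The mitochondrial dysfunction list holds nuclear genes known to be induced when mitochondrial respiration is disturbed. It had the highest median of the lists, 0.98 over 10 measured probe sets of 23 listed genes. The lists were chosen with earlier results of these data known, so this rank is a description. Of the 10 probe sets 7 had a higher response in gcn2 and 0 a lower one. AT2G32030 and AT2G32020, tandem genes for acetyltransferases of the GNAT family, differed by 1.95 ± 0.17 and 1.83 ± 0.16. AT2G32020 read 8.76, 8.84 and 8.66 in gcn2 herbicide, 4.59, 4.69 and 4.57 in gcn2 mock, 7.34, 7.32 and 7.57 in wild type herbicide and 5.20, 4.97 and 5.12 in wild type mock. The RNA was thus lowest in gcn2 mock and highest in gcn2 herbicide, with no overlap of groups. Since the tandem genes are alike, hybridisation of one RNA to the probes of the other is possible and was not tested.

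AT2G21640 differed by 1.46 ± 0.19 and AT5G51440, a small heat shock protein of mitochondria, by 1.31 ± 0.27. AT2G41730 rose by 4.87 in gcn2 and by 3.77 in wild type, a difference of 1.098 ± 0.18. NDB2, an alternative NAD(P)H dehydrogenase of the inner membrane, read on average 5.68 in gcn2 herbicide, 5.09 in gcn2 mock, 5.09 in wild type herbicide and 5.35 in wild type mock, a difference of 0.86. AT2G04050, a transporter of the MATE family, differed by 0.71. Without the block NDB2 (adjusted p = 0.13) and AT2G04050 (adjusted p = 0.28) did not pass. NDB4, AT5G43450 and AT5G09570 did not pass in either fit. Of 23 probe sets for transcripts encoded in the mitochondrion, 21 did not pass, 2 were lower and 0 higher, with a median of -0.44 and a range up to 0.30. The lower ones were cox2, a subunit of cytochrome c oxidase, at -1.13 ± 0.27 and nad4L, a subunit of complex I, at -0.82 ± 0.21, both with a call that was lost without the block (adjusted p = 0.33 and 0.23) and with the block as a random effect (adjusted p = 0.068 and 0.054). Median levels of this list were 3.57 in gcn2 herbicide, 4.23 in gcn2 mock, 3.70 in wild type herbicide and 3.68 in wild type mock. Many of its members were thus near the dim range. For nad4L gcn2 minus wild type was 0.73 in mock and -0.09 under herbicide.

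In the immunity and salicylate list 7 of 62 genes were measured, with 4 higher, 1 lower and a median of 0.86. PUB24, a U-box ubiquitin ligase that dampens immune signalling, read 5.82, 5.58 and 5.72 in gcn2 herbicide, 3.85, 4.46 and 4.14 in gcn2 mock, 4.48, 4.62 and 4.40 in wild type herbicide and 4.62, 4.31 and 4.21 in wild type mock. Only the gcn2 herbicide arrays stood apart. The difference was 1.43 ± 0.21 (adjusted p = 0.00094), with a wild type response of 0.12 that did not pass.

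BIK1, a cytoplasmic kinase that relays signals from immune receptors, read 9.15, 9.45 and 9.20 in gcn2 herbicide, 7.54, 8.14 and 8.18 in gcn2 mock, 8.08, 8.37 and 7.97 in wild type herbicide and 7.67, 8.09 and 8.01 in wild type mock. Here too the gcn2 herbicide arrays lay above the other 9. The difference was 1.09 ± 0.18 (adjusted p = 0.0025). SAG101, a lipase-like partner of the immune regulator EDS1, differed by 0.86 ± 0.15. EFR, the receptor kinase for the bacterial elongation factor EF-Tu, differed by 0.86 ± 0.18 with the block and did not pass without it (adjusted p = 0.082). GRX480, a glutaredoxin induced by salicylate, was the lower member at -1.004 ± 0.26. It did not pass without the block (adjusted p = 0.09), and in wild type herbicide it was above all gcn2 arrays.

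Among the transcription factors of the lists, STZ, a zinc finger repressor induced by salt and cold, had the largest difference after AT1G33760. It read 11.14, 11.22 and 11.08 in gcn2 herbicide, 6.94, 6.98 and 7.37 in gcn2 mock, 9.17, 9.04 and 8.68 in wild type herbicide and 7.17, 6.73 and 6.97 in wild type mock. The RNA rose in both genotypes, by 4.05 in gcn2 and by 2.00 in wild type, and the difference was 2.05 ± 0.22 (adjusted p = 4.4e-05). The zinc finger list had 3 members measured and was split, since AT2G28200 had a lower response in gcn2, at -1.004 ± 0.17. AT2G28200 read 8.61, 8.31 and 8.01 in gcn2 herbicide, 8.14, 8.21 and 7.95 in gcn2 mock, 9.07, 9.05 and 8.81 in wild type herbicide and 7.70, 7.81 and 7.77 in wild type mock. It rose by 1.21 in wild type, and its 2 gcn2 groups overlapped.

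Of 6 WRKY factors measured, a family tied to defence, WRKY53 was the 1 that passed, at 1.09 ± 0.27 with the block and not without it (adjusted p = 0.10). Of 12 ERF and DREB factors measured, AT1G33760 was the 1 that passed, and the median of the list was -0.01. In the unfolded protein response list, genes that answer misfolded proteins in the endoplasmic reticulum, 1 of 5 measured passed. This was BZIP60, a membrane-bound transcription factor of that response, which rose by 1.75 in gcn2 and by 1.03 in wild type. Its difference of 0.72 ± 0.19 did not pass without the block (adjusted p = 0.36). The other 4, with ATERDJ3B, CRT1b, BZIP28 and BZIP17, lay between -0.01 and 0.03.

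**Figure D3:**
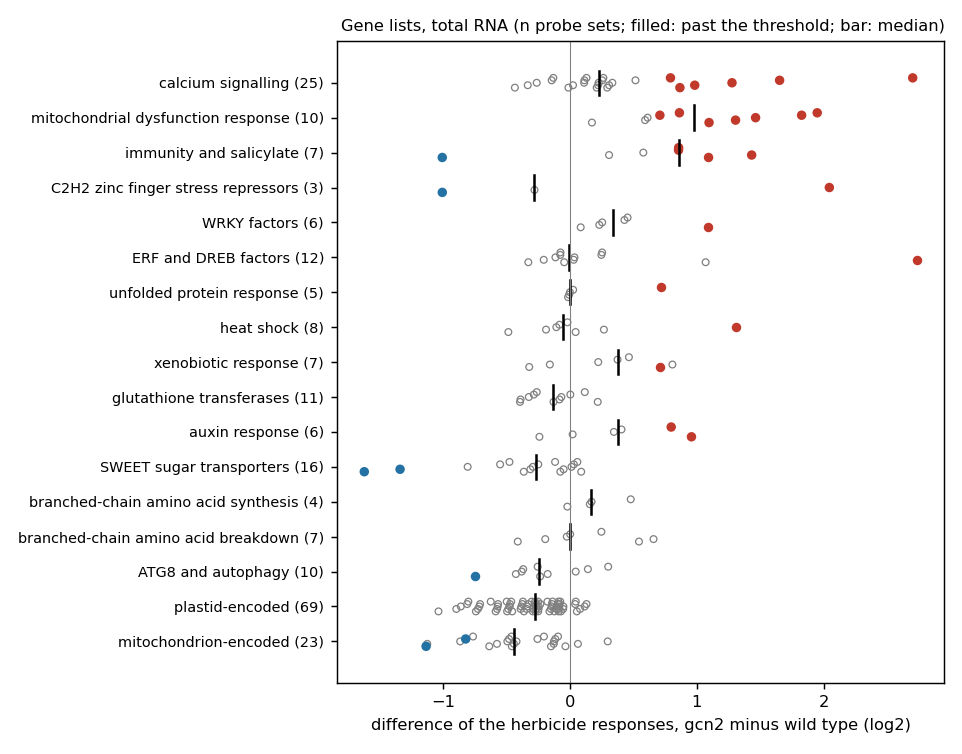
Difference of the herbicide responses (gcn2 minus wild type, log2) for each measured probe set of 17 gene lists; filled points passed the threshold over all probe sets (red higher, blue lower), open points did not, and the bar is the list's median. The mitochondrial dysfunction list has 7 of 10 members filled on the positive side, and the plastid-encoded list has none of 69 filled.

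Auxin response genes were represented by 6 measured members, of which 2 had a higher response in gcn2. GH3.3, which conjugates auxin to amino acids, read 10.99, 10.82 and 10.99 in gcn2 herbicide, 9.44, 9.43 and 9.68 in gcn2 mock, 10.06, 10.01 and 9.60 in wild type herbicide and 9.54, 9.36 and 9.40 in wild type mock. The gcn2 herbicide arrays stood above all others, and the difference was 0.96 ± 0.18 (adjusted p = 0.0072). IAA29, an auxin-inducible repressor, differed by 0.80 ± 0.14, with a wild type response of 0.06. Its call was lost without the block (adjusted p = 0.18).

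SWEET transporters, which let sugars cross membranes, had 16 of 17 genes measured, 2 lower, 0 higher and a median of -0.27. SWEET2, a transporter of the vacuole membrane, read 5.60, 5.67 and 5.64 in gcn2 herbicide, 5.72, 5.90 and 6.04 in gcn2 mock, 6.07, 6.54 and 6.41 in wild type herbicide and 4.87, 5.42 and 5.47 in wild type mock. The wild type herbicide arrays were above the other 9, and the gcn2 herbicide arrays lay below gcn2 mock. The response was -0.25 in gcn2, which did not pass, and 1.09 in wild type, a difference of -1.34 ± 0.17 (adjusted p = 0.00022).

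SWEET4 had the largest negative difference that passed, -1.62 ± 0.26 (adjusted p = 0.002). It read 3.70, 3.56 and 3.19 in gcn2 herbicide, 4.59, 4.14 and 4.17 in gcn2 mock, 4.82, 4.80 and 4.94 in wild type herbicide and 3.74, 3.93 and 4.50 in wild type mock. It moved in opposite directions, by -0.82 in gcn2 and 0.80 in wild type, but the gcn2 herbicide group was dim. SWEET13, at -0.80, did not pass (adjusted p = 0.07), and the other 13 members lay between -0.55 and 0.09.

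The other large negative differences were of mixed kinds. AT3G52360 read 9.10, 9.26 and 9.41 in gcn2 herbicide, 9.14, 9.22 and 9.25 in gcn2 mock, 9.97, 10.04 and 9.94 in wild type herbicide and 8.45, 8.97 and 8.77 in wild type mock. Wild type herbicide arrays were above all others, and the gcn2 groups overlapped. Its difference was -1.20 ± 0.16 (adjusted p = 0.00043). AT3G47320 had a similar shape, with responses of -0.09 in gcn2 and 1.06 in wild type and a difference of -1.16 ± 0.16.

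TRY, the R3 MYB repressor of trichome formation, had responses of -0.17 in gcn2 and 0.98 in wild type. Its difference was -1.15 ± 0.21, with an adjusted p of 0.0049 with the block and 0.052 without it. AT1G62510, a lipid-transfer-like protein, fell in both genotypes, by 1.77 in gcn2 and by 0.56 in wild type. It read 8.15, 8.14 and 8.34 in gcn2 herbicide, 10.02, 9.53 and 10.40 in gcn2 mock, 8.64, 9.06 and 8.80 in wild type herbicide and 9.13, 9.62 and 9.44 in wild type mock. Its groups were separate but for the mock groups, which overlapped.

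AT2G25870, a hydrolase of the haloacid dehalogenase type, fell by 0.93 in gcn2 with 0.27 in wild type, a difference of -1.20 ± 0.21. ECS1 differed by -1.53 ± 0.28 and was dim in at least 1 group. Its gcn2 minus wild type value was 0.93 in mock (adjusted p = 0.046) and -0.61 under herbicide (adjusted p = 0.063). The gcn2 mock arrays of ECS1 read 4.61, 4.11 and 3.43 in replicates 1, 2 and 3. By replicate its difference of responses was -2.27, -1.73 and -0.60. MOB1-like at -1.38, AT4G17020, a subunit of the transcription and repair factor TFIIH, at -1.15, and AT4G33960 at -1.13 did not pass without the block (adjusted p = 0.35, 0.26 and 0.11). MOB1-like varied widely between replicates in all groups, for example at 5.96, 7.50 and 6.84 in wild type herbicide and 4.74, 5.79 and 5.56 in wild type mock.

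Responses in opposite directions that each passed in their own genotype were found for 37 of the 1051 probe sets, 6 in the higher set and 31 in the lower set. They were counted only among probe sets that passed the interaction, a choice that favours opposite responses, and not over all probe sets. AT2G43620, of the chitinase family, read 9.16, 8.87 and 8.27 in gcn2 herbicide, 8.23, 8.09 and 7.68 in gcn2 mock, 8.35, 8.21 and 7.87 in wild type herbicide and 9.16, 8.68 and 8.53 in wild type mock. The groups overlapped as they stand, and within each replicate number gcn2 rose and wild type fell. The response was 0.77 in gcn2 and -0.65 in wild type, a difference of 1.41 ± 0.16 (adjusted p = 8.5e-05). AT4G37295, AT1G32410 and AT4G16410 moved the other way, with differences of -0.98, -0.99 and -0.98. Their responses were -0.65, -0.41 and -0.43 in gcn2, and 0.33, 0.57 and 0.55 in wild type.

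Genes of the pathway that the herbicide blocks did not pass. Of 17 genes of branched-chain amino acid synthesis 4 were measured, with differences between -0.02 and 0.48. AT2G31810, a regulatory subunit of acetolactate synthase, read 7.54, 7.75 and 7.61 in gcn2 herbicide, 7.44, 7.63 and 7.77 in gcn2 mock, 6.97, 7.36 and 7.17 in wild type herbicide and 7.56, 7.75 and 7.57 in wild type mock. Wild type herbicide was the low group, below the other 9 arrays. The difference was 0.48 ± 0.15, which did not pass (adjusted p = 0.085 with the block and 0.32 without it). Of branched-chain amino acid breakdown 7 of 13 genes were measured and 0 passed, from -0.41 for AT2G26800 to 0.66 for MCCA, a subunit of the leucine breakdown enzyme methylcrotonyl-CoA carboxylase (adjusted p = 0.055). AT2G40290, a subunit gene of eIF2, and ILA, a homologue of the yeast GCN2 activator GCN1, differed by 0.18 and -0.25 and did not pass. These counts were read against 4.62% of all probe sets.

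Further lists held few or 0 members that passed. Of 11 glutathione transferases, which conjugate toxic compounds, 0 passed, with differences between -0.39 and 0.22. In the xenobiotic list AT2G04050 was the 1 of 7 that passed, and in the heat shock list AT5G51440 the 1 of 8. PYE, which regulates genes of iron deficiency, fell in both genotypes, by 1.44 in gcn2 and by 0.71 in wild type. The difference of -0.73 ± 0.19 did not pass without the block (adjusted p = 0.34). Group means of PYE were 5.48 in gcn2 herbicide, 6.92 in gcn2 mock, 5.58 in wild type herbicide and 6.29 in wild type mock. Gcn2 minus wild type was 0.63 in mock (adjusted p = 0.039) and -0.10 under herbicide (adjusted p = 0.71). APG8H, of the ATG8 family that forms autophagosomes, was the 1 of 10 that passed, at -0.74 ± 0.17 with the block and not without it (adjusted p = 0.20).

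Lists of sugar starvation, abscisic acid and cold, and nuclear photosynthesis genes had 3 measured members each, and the clock and ethylene lists 1 each. In these 0 passed. The plastid-encoded list had 69 probe sets, a median of -0.27 and 0 past the threshold. No jasmonate gene of the list was measured under a name of its own.

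The same difference of responses was computed in RNA from polysome gradients, on arrays that the total RNA comparison does not use. Each group there had 3 arrays of non-polysomal, small polysome and large polysome RNA. Gradients of wild type replicate 3 stood apart: over the higher set its mean response was -0.37 in non-polysomal, -0.47 in small polysome and -0.45 in large polysome RNA, while wild type replicates 1 and 2 lay between 0.28 and 0.95 and wild type total RNA replicate 3 was at 0.39. Values are therefore given with and without replicate 3. In large polysome RNA the wild type response of replicate 1 was also shifted, by 0.33 on average over all probe sets.

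In non-polysomal RNA the higher set had a median difference of 1.12, or 1.02 without replicate 3, and 97.8% of its members were positive, or 97.4% without replicate 3, against 51.8% and 58.5% of all probe sets. Of the 644, 179 passed in non-polysomal RNA with all replicates, where 0.95% of all probe sets passed as higher, and 141 without replicate 3, where 0.765% did. In small polysome RNA 150 passed, against a background of 0.739%, and 58 without replicate 3, against 0.259%. The medians there were 1.08 and, without replicate 3, 0.87. In large polysome RNA 13 passed, against 0.0572%, and 21 without replicate 3, against 0.0923%. The medians were 0.89 and, without replicate 3, 0.61, with 87.7% and 81.7% positive, against 39% and 33.3% of all probe sets in that shifted fraction.

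Of the lower set few members passed in the fractions. Its median there was -0.51 in non-polysomal RNA, -0.32 in small polysome RNA and -0.54 in large polysome RNA, or -0.71, -0.40 and -0.48 without replicate 3. Members with a negative sign made up 89.2%, 84.3% and 91.2%, or 92.1%, 86% and 90.7% without replicate 3. Over all probe sets the negative shares were 48.2%, 53.8% and 61%, or 41.5%, 51.1% and 66.7% without replicate 3. Of the 407, 7 passed in non-polysomal RNA, 1 in small polysome RNA and 0 in large polysome RNA, where 0.106%, 0.0264% and 0.0044% of all probe sets passed as lower. In large polysome RNA limma called 14 probe sets in either direction. There 1165 of all 22746 had an unadjusted p under 0.05, close to the share that this threshold passes by chance. Without replicate 3, 19, 0 and 0 of the 407 passed, against 0.352%, 0.0044% and 0.0044% of all probe sets. With the replicate number as a block, as in total RNA, 12 of the 407 passed in non-polysomal and 8 in small polysome RNA, against 0.176% of all probe sets in each, and 211 of the 644 passed as higher in small polysome RNA, against 1.12%. The sources used here do not say whether gradients and total RNA came from the same plants.

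Of the 48 named genes that passed in total RNA, all 28 with a higher response in gcn2 had a positive difference in each of the fractions, with and without replicate 3. Of these, 12 passed in non-polysomal, 14 in small polysome and 3 in large polysome RNA, and 12, 12 and 4 without replicate 3. Over all probe sets 51.8%, 46.2% and 39% were positive in these fractions, or 58.5%, 48.9% and 33.3% without replicate 3. As higher 0.95%, 0.739% and 0.0572% of all passed, or 0.765%, 0.259% and 0.0923% without replicate 3. Many of the named genes were picked for the size of their difference in total RNA, so their counts do not stand for the whole sets. Of the 20 with a lower response, 17, 19 and 17 had a negative difference in non-polysomal, small polysome and large polysome RNA, and 19, 17 and 18 without replicate 3. Of these 20, 1, 1 and 0 passed with all replicates, and 2, 0 and 0 without replicate 3. Over all probe sets 48.2%, 53.8% and 61% were negative, or 41.5%, 51.1% and 66.7% without replicate 3. As lower 0.106%, 0.0264% and 0.0044% of all passed, or 0.352%, 0.0044% and 0.0044% without replicate 3. With all replicates the exceptions in sign among the named genes were AT3G47320, cox2 and GRX480 in non-polysomal RNA, TRY in small polysome RNA, and AT3G47320, APG8H and nad4L in large polysome RNA. Without replicate 3 they were GRX480 in non-polysomal RNA, AT4G33960, nad4L and AT4G37295 in small polysome RNA, and nad4L and AT4G37295 in large polysome RNA.

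The difference of CML41 was 2.70, 2.72 and 2.25 in non-polysomal, small polysome and large polysome RNA, and 2.39, 2.58 and 2.27 without replicate 3. That of AT3G60420 was 2.43, 3.15 and 2.79, or 1.48, 2.28 and 1.59 without replicate 3. It passed in small polysome RNA (adjusted p = 0.012) and not in non-polysomal or large polysome RNA (adjusted p = 0.066 and 0.31). SWEET2 was at -0.45, -0.55 and -0.21, or -0.86, -1.11 and -0.57 without replicate 3, and with all replicates it passed in none of the fractions (adjusted p = 0.80, 0.85 and 0.96). These 3 genes were picked for the fractions after their values were seen.

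**Figure D4:**
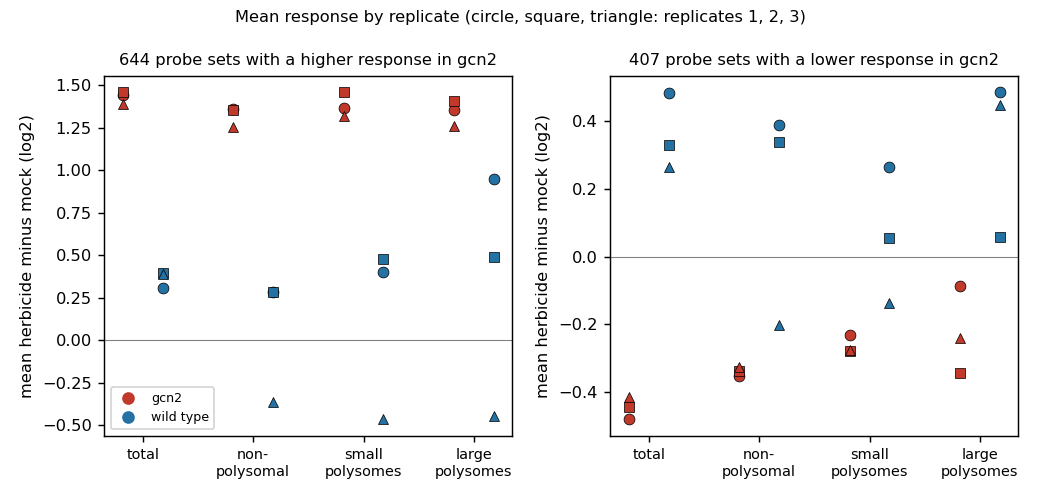
Mean change between herbicide and mock (log2) over the 644 probe sets with a higher response in gcn2 (left) and the 407 with a lower one (right), by replicate, in total RNA and the 3 gradient fractions, with gcn2 in red and wild type in blue. The wild type replicate 3 (blue triangle) is at -0.37, -0.47 and -0.45 in the fractions of the left panel and at 0.39 in total RNA; total RNA chose both sets.

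By replicate number in total RNA, the mean difference of responses over the higher set was 1.13, 1.06 and 1.00 in replicates 1, 2 and 3, and over the lower set it was -0.97, -0.78 and -0.68. All 644 and all 407 had the same sign in each of the 3 replicates, against 42.8% of all probe sets. This is a description, since these arrays chose the sets.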

How the data were processed

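RNA was measured on Affymetrix ATH1 arrays. Judged from their range, the deposited values are log2 intensities, and per the submitters' processing notes the authors used RMA, affy and MAS5. The sources used here give no versions and do not say whether all arrays were normalized together. A change common to all RNAs would not be seen, and the number of arrays limits the precision.

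Of 22810 probe sets 64 controls were left out. Through the probe table and RefSeq (TAIR10.1), 13513 probe sets had 1 gene, 503 several and 8730 were unnamed here. For the 12 total RNA arrays a limma model (version 3.58.1, R 4.3.3) held the 4 group means and the replicate number as a block, with Benjamini-Hochberg adjustment over 22746 probe sets and a threshold of 0.05. SE is that of the fit. Gradient fractions were fitted separately without a block. The script was tested on simulated data.

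Replicate numbers come from the titles. Residuals of same-numbered arrays of different groups correlated above 0.1 in 18 of 18 pairs (mean 0.37), so the numbers pair the samples. Of pairs with different numbers 1 of 36 did so. Residuals cancel within a group, so this second count is tied to the first and is not separate evidence. Nothing says that replicates were grown separately, so the spread behind the p-values may be technical. Named genes were, among called probe sets with 1 gene, the 12 largest differences per direction, up to 3 per direction of each list with called members by smallest adjusted p, 5 with opposite responses, and GCN2, CSR1 and AT2G31810. The remaining members named in a list were chosen to complete its count or after their values were seen. The members and lists were chosen with earlier results of these data known. Alternatives were another block, quantile normalization, centring, a filter on dim probe sets, another prior, array weights and leaving out arrays.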

Additional observations from a re-analysis of the deposited data

Results flagged for a closer look

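The responses of the genotypes differed by the interaction test for 1051 probe sets. Among named genes the largest such differences (gcn2 minus wild type, log2) were 2.94 for AT3G60420, 2.86 for AT3G54150, 2.73 for AT1G33760, 2.70 for CML41, 2.68 for AT1G43910 and 2.59 for AT5G39670. They were followed by 2.41 for AT5G52760, 2.33 for AT4G24110, 2.29 for AT2G32140, 2.26 for AT2G20142, 2.25 for AT3G09405 and 2.08 for AT1G56060. On the negative side they were -1.62 for SWEET4, -1.53 for ECS1, -1.38 for MOB1-like, -1.34 for SWEET2, -1.21 for AT1G62510 and -1.20 for both AT2G25870 and AT3G52360. Next came -1.16 for AT3G47320, -1.15 for both TRY and AT4G17020, and -1.13 for both cox2 and AT4G33960. Opposite directions in the genotypes were also seen, with a difference of 1.41 for AT2G43620, -0.98 for AT4G37295, -0.99 for AT1G32410 and -0.98 for AT4G16410.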

How the results depend on the processing

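Of 49 named genes, 26 kept their call in each alternative in which they were tested. These include AT2G31810, which passed in no fit. Of the 20 named genes with a lower response only SWEET4, SWEET2, AT3G52360 and AT3G47320 kept their call throughout. Direction changed for 0 of the 49, which was close to fixed in advance. The block settings and the prior leave the estimate as it is, and the called genes had 1 sign in all 3 replicates. With the replicate as a random effect 912 probe sets passed, and with quantile normalization, centring, the filter on dim probe sets, a trended robust prior or array weights between 1077 and 1419. Without the replicate block 347 passed, 299 higher and 48 lower, and 13 of the 48 named genes that passed lost their call. The trended robust prior gave 645 lower. Leaving out arrays or a whole replicate number gave 288 to 1148 in all, 251 to 646 higher and 37 to 502 lower. A whole number left out leaves 2 arrays per group. Calls most often lost over 15 such omissions were those of BZIP60 (13), GRX480, AT2G04050 and PYE (12 each), nad4L (11), WRKY53 and APG8H (10 each), cox2 (8), MOB1-like (7) and AT4G33960 (6). In the fractions, leaving out replicates gave 1 to 254 in non-polysomal RNA (240 with all), 1 to 60 in small polysomes (174 with all) and 0 to 22 in large polysomes (14 with all). The replicate block gave 294 in small and 8 in large polysomes, and centring gave 33 in large polysomes. The causes were not tested. Probe sets in the dim range have uncertain sizes.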

Other observations

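Gene families matched by symbol, added after the data were seen, showed few further members. Of 29 xyloglucan endotransglucosylases and expansins, proteins tied to the cell wall, 3 had a higher response in gcn2 and 0 a lower one, with a median of -0.01, where 2.83% of all probe sets were higher and 1.79% lower. They were XTH19 at 1.04 ± 0.21, EXLA3 at 0.92 ± 0.18 and EXLA1 at 0.77 ± 0.18, and without the block they did not pass (adjusted p = 0.13, 0.082 and 0.069). EXLA3 averaged 6.57 in gcn2 herbicide, 6.19 in gcn2 mock, 5.63 in wild type herbicide and 6.17 in wild type mock, so that it lay lowest in wild type herbicide. Of 29 probe sets of cytochrome P450 and cyclophilin-type CYP symbols, CYP71B22 was the 1 that passed, at 1.48 ± 0.26, with a dim group, a share close to that of all probe sets. Of 51 UDP-glycosyltransferases 0 passed, with a range of -0.52 to 0.81.

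Among 5845 pairs of neighbouring genes with both measured, 8 pairs were both higher, 4 both lower and 4 opposite. Over all probe sets 2.83% were higher and 1.79% lower. The counts of pairs that chance would give were not computed, so these counts only describe the pairs. Pairs both higher included AT2G39650 at 1.91 with BIK1 at 1.09, and AT5G52750 at 1.68 with AT5G52760 at 2.41. SFP1 at -1.05 and SFP2 at -0.93, tandem sugar transporter-like genes, were both lower. Hybridisation between similar neighbours was not tested.

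1 unnamed probe set had the lowest difference of all, -4.59 ± 1.301, but did not pass (adjusted p = 0.058). It read 10.35 and 10.44 in gcn2 mock replicates 1 and 2, and 4.64 in gcn2 mock replicate 3. In gcn2 herbicide it read 3.75, 3.75 and 4.11, in wild type herbicide 3.89, 3.92 and 4.18, and in wild type mock 3.99, 3.79 and 4.25. The same split was seen on the gradient arrays of gcn2 mock, with 9.71, 10.28 and 4.22 in replicates 1, 2 and 3 of non-polysomal RNA and 10.14, 10.58 and 4.31 in small polysome RNA, while large polysome RNA gave 10.05, 10.19 and 7.67. The probe set was singled out after its values were seen. Gcn2 mock replicates 1 and 2 thus differed from replicate 3 of the same label, and gcn2 mock enters each interaction value. The sources used here do not say whether the replicates came from 1 seed stock, and the bearing on the interaction was not tested.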
